A study of Homo sapiens with 6 samples.

Results

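The subunits of the oxidative phosphorylation system are encoded in 2 genomes, and 100 of their genes were followed here in EZH2-depleted and control HMV-II cells. They were chosen by name and by chromosome from the 30015 genes of an RNA-seq table, 16072 of them protein-coding. All 13 protein-coding genes of the mitochondrial chromosome were taken, together with the 87 nuclear protein-coding genes whose symbols name subunits of NADH dehydrogenase (NDUFA, NDUFB, NDUFC, NDUFS and NDUFV), succinate dehydrogenase (SDHA to SDHD), ubiquinol-cytochrome c reductase (UQCR and CYC1), cytochrome c oxidase (COX4 to COX8) and ATP synthase (ATP5). Assembly factors named NDUFAF and the gene ATP5SL were not counted. The nuclear genes comprised 36 of complex I, 4 of complex II, 10 of complex III, 16 of complex IV and 21 of complex V, with NDUFA4 and its paralog NDUFA4L2 placed in complex IV. The mitochondrial genes comprised 7 of complex I, 1 of complex III, 3 of complex IV and 2 of complex V.

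HMV-II is a human mucosal melanoma line of vaginal origin, with no treatment given in the labels. The 3 Vector libraries, labelled wild type, came from cells carrying a scrambled control shRNA. The 3 shEZH2 libraries, labelled EZH2 knockdown, came from cells carrying an shRNA against EZH2, the histone methyltransferase of Polycomb repressive complex 2. The table heads the knockdown as sh1 and the control as shNC. Both shRNAs were delivered by lentivirus and the cells were selected with puromycin as stable lines, and whether a line was a clone or a mixed population is not given in the sources used here. The libraries were made from poly(A)-selected RNA. No source says that the 3 libraries of a group came from separate cultures, so the p-values measure only the spread between these libraries, which may be technical.

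Complexes I and II pass electrons from NADH and succinate to ubiquinone, complex III passes them to cytochrome c and complex IV to oxygen, and the protons pumped by complexes I, III and IV drive ATP synthesis in complex V. The mitochondrial genome encodes membrane-embedded core subunits of every complex except complex II and is transcribed by POLRMT as long precursors that are cut into single mRNAs, while the other subunits are made in the cytosol and imported. In melanoma cells, PPARGC1A, a coactivator under the control of MITF, is known to raise the expression of oxidative phosphorylation genes.

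Depth ran from 13400290 to 15923029 reads on genes in the Vector libraries and from 16129171 to 19128939 in the shEZH2 libraries. In the order of the replicate numbers, used for all values by library, EZH2 had 483, 437 and 552 normalized counts in Vector and 237, 247 and 225 in shEZH2 (log2 fold change -1.04 ± 0.14, SE, n = 3 per group, limma adjusted p = 0.0142). Its adjusted p was 8.25e-05 without Vector replicate 2 and between 0.0553 and 0.128 with 1 of the other 5 libraries left out. All 8 melanocyte lineage markers were detected, with group means from 275 (TYRP1) to 60992 (PMEL) normalized counts. Of the markers of other cell types, KRT14, EPCAM, COL1A1, DCN, PTPRC, PECAM1, MYH7 and CKM had group means of at most 9.87, while CDH1 (414 in Vector and 342 in shEZH2) and COL1A2 (65.5 and 36.9) were expressed. KRT5, CD3E and CDH5 were not analysed here. In bulk RNA, fewer cells of a type and less RNA per cell cannot be told apart.

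Vector replicate 2 stood apart in these genes, and results are therefore given with and without it. Among the 82 nuclear genes tested, those whose mean over the libraries was 10 normalized counts or more, Vector replicate 2 was below both other Vector libraries in 79 and was the lowest of the 6 libraries in 75. Over all 15251 genes tested it was the lowest in 5737. Its median difference from the mean of Vector replicates 1 and 3, on the log2(normalized count + 1) scale, was -1.70 over the nuclear genes and -0.42 over the mitochondrial genes, against -0.02 over all genes tested. It was deepest in complex IV, at -2.62, then in complex V (-2.18), complex III (-1.55) and complex I (-1.47), and smallest in complex II (-0.75). COX6A1, a small subunit of complex IV named after its values were seen, had 127 normalized counts in Vector replicate 2 and 1170 and 1142 in Vector replicates 1 and 3.

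**Figure D1:**
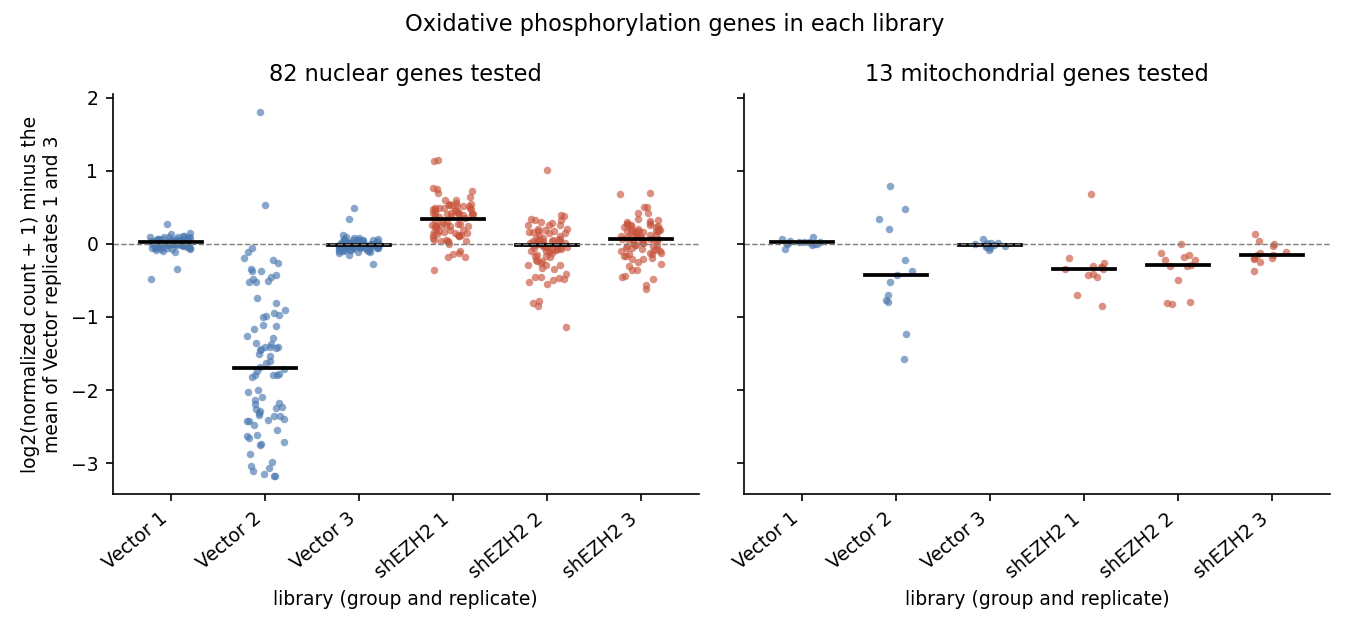
Each point is 1 gene in 1 library, for the 82 nuclear genes tested (left) and the 13 mitochondrial genes (right). The vertical axis is the gene's log2(normalized count + 1) minus the mean of Vector replicates 1 and 3, black bars are medians, blue is Vector and red is shEZH2. The nuclear median of Vector replicate 2 lies at -1.70, while those of the 3 shEZH2 libraries lie at 0.34, -0.02 and 0.07.

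The nuclear genes are short, and the low values in Vector replicate 2 went with transcript length. The canonical transcripts of 81 of the tested nuclear genes had a median length of 763 bases, against 3000 bases over 15008 tested genes. Across these 81 genes, length and the deviation of Vector replicate 2 had a Spearman rho of 0.54, and across the 15008 genes one of 0.49, both given as descriptions, since the genes share their libraries. With all genes split into 5 equal bins by length, the shortest bin, with transcripts up to 1464 bases, held 57 of the 81 nuclear genes. Their median deviation was -1.80, against -0.68 over all genes of that bin. In the longer bins, in order of length, the 9, 7, 3 and 5 nuclear genes had medians of -0.91, -1.36, -0.73 and -0.37. All genes of these bins had -0.45, -0.10, 0.15 and 0.49, so the nuclear genes were lower than all genes in every bin. Over all genes tested, binned in the same way by the gene length of the table, the shortest bin had a median deviation from the mean of the 6 libraries, on the log2 scale, of -0.49 in Vector replicate 2, 0.24 in shEZH2 replicate 1 and 0.06 to 0.13 in the other 4. The longest bin lay at 0.37 in Vector replicate 2, at -0.19 in shEZH2 replicate 1 and at -0.04 to -0.02 in the other 4, so that shEZH2 replicate 1 departed in the opposite direction to Vector replicate 2. The part of transcript length in the results that follow was not tested beyond the removal of a trend on gene length. With that trend removed and all 6 libraries, 76 of 82 nuclear genes had a log2 fold change above 0. Their median was 0.56, against 0.66 with the trend kept. Gene length can be far from transcript length, as in COX4I1 with 4792 and 763 bases. The removal therefore does not measure the part of transcript length.

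**Figure D2:**
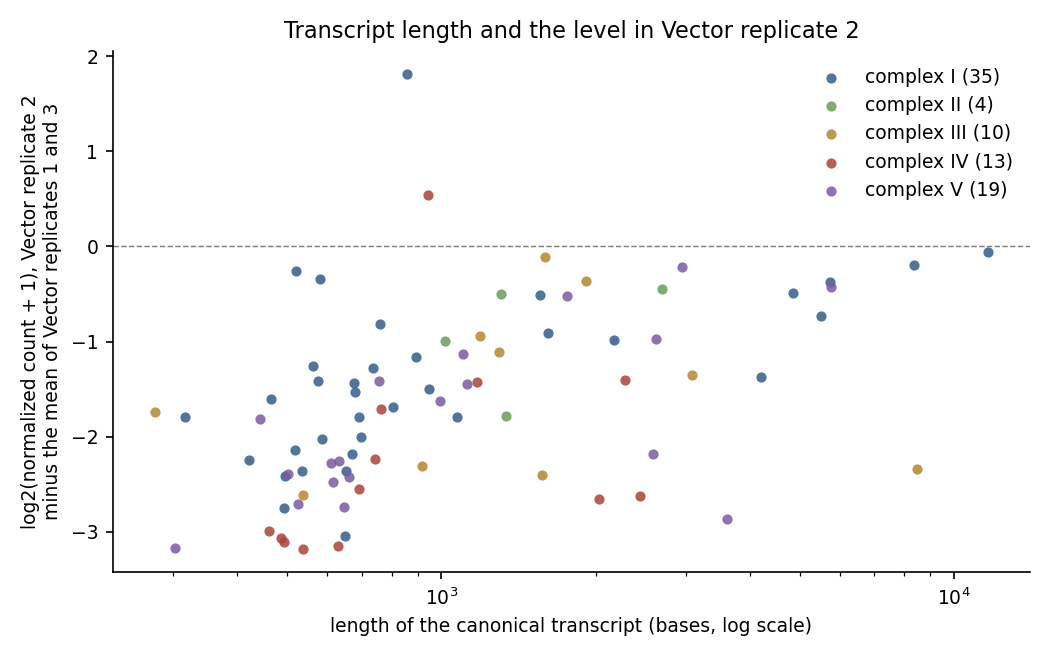
Each point is 1 of 81 nuclear genes, coloured by complex. The horizontal axis is the length of its canonical transcript in bases on a log scale, and the vertical axis is its log2(normalized count + 1) in Vector replicate 2 minus the mean of Vector replicates 1 and 3. Most of the short genes at the left lie below -1, and NDUFV2 at 1.81 and NDUFA4L2 at 0.54 are the only points above 0.

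With all 6 libraries, nuclear subunit genes were mostly higher in shEZH2 in size, and few passed a test. Of the 82 tested, 77 had a log2 fold change above 0, and the median was 0.66, against 0.04 over all genes tested. Without Vector replicate 2, 57 of the 82 were above 0 and the median was 0.11, against -0.01 over all genes. At the rule used by the study, an unadjusted p under 0.05 with a fold change over 1.5, NDUFC2, NDUFS8 and NDUFA8 rose and 0 nuclear genes fell. These 3 are 3.7% of the nuclear genes tested, and 7.55% of all genes tested rose and 7.07% fell by the same rule. The count was 26 without Vector replicate 1, 15 without Vector replicate 3 and 1 without either Vector replicate 2 or shEZH2 replicate 1. Of these fits, the share of all genes called is given here only for the one without Vector replicate 2. These counts are therefore not read as a trait of the nuclear genes. In limma, 0 nuclear genes had an adjusted p under 0.05 in either direction with all 6 libraries, where 2.28% of all genes rose and 1.84% fell. At an unadjusted p under 0.05 there were 5 in limma, where 3538 of the 15251 genes tested passed. By adjusted p DESeq2 called 2 (NDUFC2 and SDHA), where 797 of all genes rose and 830 fell, and edgeR called 0.

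Without Vector replicate 2, by adjusted p in limma, 7 nuclear genes rose and 0 fell. They were NDUFS8, NDUFC2, SDHA, NDUFA8, UQCR10, ATP5MC3 and ATP5PB, the last 2 named after their values were seen. They are 8.5% of the nuclear genes tested, and 9.78% of all genes tested rose and 9.07% fell in the same fit, so the share was near that of all genes. DESeq2 and edgeR without that library called 7 nuclear genes each, where in DESeq2 1360 of the 15251 genes tested rose and 1291 fell. The count over all genes in edgeR is not given here, so its 7 genes are not read as a trait of the nuclear genes. By the rule of the study without Vector replicate 2, NDUFC2 alone rose among the nuclear genes, where 7.05% of all genes rose and 5.64% fell. All 3 shEZH2 libraries lay above all 3 Vector libraries in 21 of the 82 genes (25.6%), against 18.4% of all genes tested. The same 21 genes lay above Vector replicates 1 and 3, where 25.1% of all genes did. None of the 82 lay below all Vector libraries, where 16.5% of all genes did, and COX7A2L, named after its values were seen, and ATP5S lay below Vector replicates 1 and 3, where 24.9% of all genes did. Among the shEZH2 libraries, replicate 1 was the highest in 65 of the 82 genes and replicate 2 the lowest in 60. Against Vector replicates 1 and 3 the nuclear genes had a median of 0.34 in shEZH2 replicate 1, the library that also departed along length, and of -0.02 and 0.07 in shEZH2 replicates 2 and 3.

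**Figure D3:**
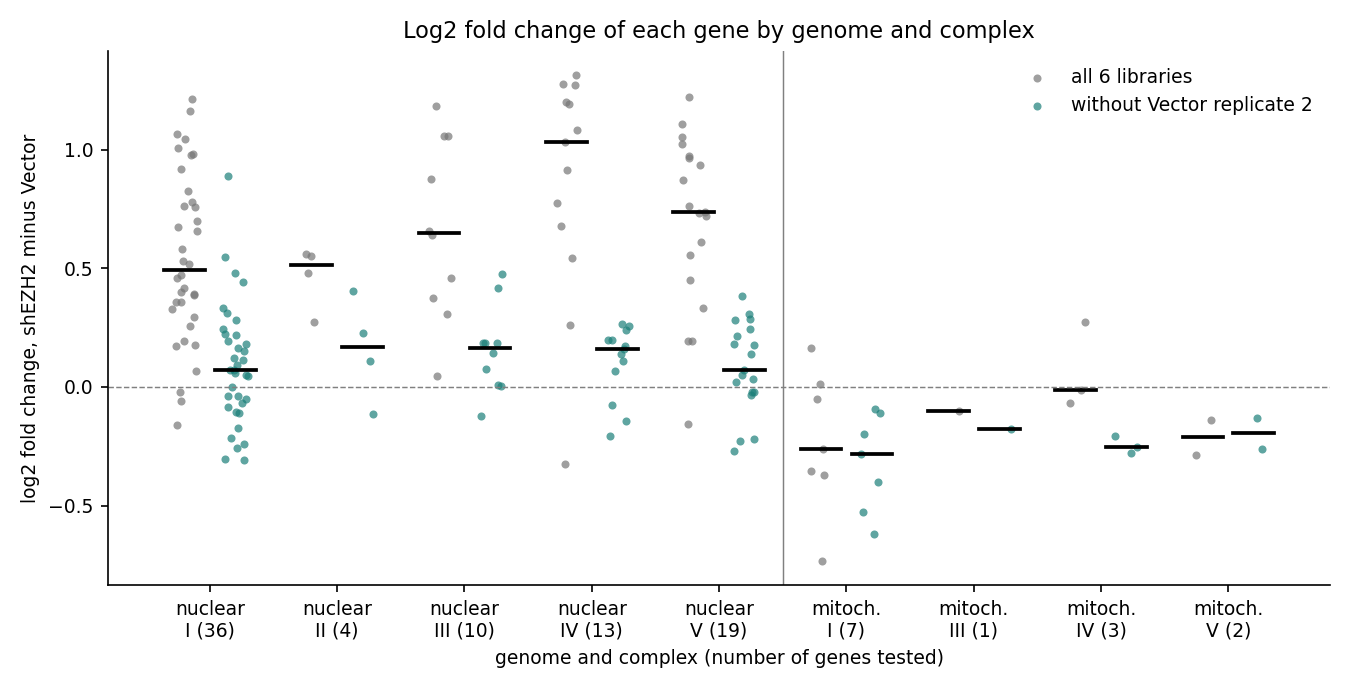
Each point is the log2 fold change (shEZH2 minus Vector) of 1 gene, by genome and complex, with the number of genes tested in parentheses. Grey points are from all 6 libraries, green points are without Vector replicate 2, and black bars are medians. The nuclear medians fall from between 0.50 and 1.03 to between 0.07 and 0.17 when Vector replicate 2 is left out, and the mitochondrial genes all lie below 0 in the green set.

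The 36 nuclear genes of complex I had a median log2 fold change of 0.50 with all 6 libraries and of 0.07 without Vector replicate 2. By part of the complex, the medians were 0.17 and -0.04 for the 9 genes of the N module, which oxidises NADH, 0.46 and 0.18 for the 7 genes of the Q module, which reduces ubiquinone, and 0.68 and 0.12 for the 20 genes of the membrane arm. In 7 of the 36 the shEZH2 libraries lay above all Vector libraries, where 18.4% of all genes tested did. The same 7 lay above Vector replicates 1 and 3, where 25.1% of all genes tested did.

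NDUFS8, an iron-sulfur subunit of the Q module on chromosome 11 (68030617 to 68036644, GRCh38, plus strand), had 780, 313 and 745 normalized counts in the Vector libraries and 1282, 1001 and 1086 in the shEZH2 libraries. Every shEZH2 library was above every Vector library. The log2 fold change was 0.98 ± 0.34 (SE, limma adjusted p = 0.148) and 0.55 ± 0.12 without Vector replicate 2 (adjusted p = 0.00713), and without shEZH2 replicate 1 it was 0.88 and no longer passed the rule of the study.

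NDUFC2, a membrane arm subunit on chromosome 11 (78068304 to 78080219, minus strand), had 58.6, 30.3 and 63.1 normalized counts in the Vector libraries and 136, 123 and 86.9 in the shEZH2 libraries. The groups did not overlap, and the counts were low. Its log2 fold change was 1.22 ± 0.32 (SE, limma adjusted p = 0.0821) and 0.89 ± 0.21 without Vector replicate 2 (adjusted p = 0.0115). It overlaps THRSP, and the sources used here do not say whether counting used strand, so reads of the 2 genes may be mixed.

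NDUFA8, a membrane arm subunit on chromosome 9 (122144058 to 122159819, minus strand), had 395, 118 and 369 normalized counts in the Vector libraries and 651, 458 and 510 in the shEZH2 libraries. Again the groups did not overlap. Its log2 fold change of 1.05 ± 0.44 (SE, limma adjusted p = 0.210) became 0.48 ± 0.15 without Vector replicate 2 (limma adjusted p = 0.0376), under the fold of the study. It also missed the rule of the study without shEZH2 replicate 1, 2 or 3, at 0.90, 1.16 and 1.08.

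The lowest log2 fold change among the nuclear genes of complex I was that of NDUFV2, a subunit of the N module, at -0.16 ± 0.54 (SE, limma adjusted p = 0.872) with all 6 libraries and 0.44 ± 0.41 without Vector replicate 2 (adjusted p = 0.492). It had 9.41, 38.4 and 11.2 normalized counts in the Vector libraries and 15.2, 11.2 and 17.2 in the shEZH2 libraries. Only Vector replicate 2 stood apart, and it was the highest. The gene overlaps its antisense gene NDUFV2-AS1, so its value is uncertain without strand. Of the 87 nuclear genes, 47 overlap another gene of the table. The 44 of these that were tested had medians of 0.60 with all 6 libraries and 0.07 without Vector replicate 2, and the 38 tested genes with no overlapping gene 0.73 and 0.17.

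Complex II has no mitochondrially encoded subunit, and its 4 genes had a median log2 fold change of 0.52 with all 6 libraries and 0.17 without Vector replicate 2. SDHA, the flavoprotein that oxidises succinate, lies on chromosome 5 (218241 to 256700, plus strand). It had 975, 716 and 978 normalized counts in the Vector libraries and 1303, 1270 and 1303 in the shEZH2 libraries, with no overlap and an SD of 18.7 among the shEZH2 libraries. The log2 fold change was 0.55 ± 0.16 (SE, limma adjusted p = 0.0967), which is under the fold of the study, and 0.40 ± 0.10 without Vector replicate 2 (adjusted p = 0.0130).

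SDHB, the iron-sulfur subunit that receives the electrons, had 1574, 791 and 1583 normalized counts in the Vector libraries and 1900, 1775 and 1876 in the shEZH2 libraries. These groups did not overlap either, and the log2 fold change was 0.56 ± 0.27 (SE, limma adjusted p = 0.259), or 0.23 ± 0.10 without Vector replicate 2 (adjusted p = 0.119). Without Vector replicate 2 the membrane anchors were closer to the Vector level than SDHA and SDHB. With all 6 libraries SDHC was closer, and SDHD was near SDHB. SDHC had 2756, 1949 and 2772 against 2992, 2841 and 3111 normalized counts, a log2 fold change of 0.28 ± 0.17 (SE, limma adjusted p = 0.366) and 0.11 ± 0.09 without Vector replicate 2 (adjusted p = 0.466). SDHD had 911, 275 and 989 against 836, 934 and 860, and its log2 fold change of 0.48 ± 0.45 (limma adjusted p = 0.534) was -0.12 ± 0.11 without Vector replicate 2 (adjusted p = 0.503). In SDHC the shEZH2 libraries were all above the Vector libraries, and in SDHD the groups overlapped.

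In 4 of the 10 nuclear genes of complex III the shEZH2 libraries lay above all Vector libraries, where 18.4% of all genes tested did. The same 4 lay above Vector replicates 1 and 3, where 25.1% of all genes tested did. The 10 genes had median log2 fold changes of 0.65 with all 6 libraries and 0.16 without Vector replicate 2. The highest was UQCR10, a small subunit on chromosome 22 (29767369 to 29770413, plus strand), with 556, 106 and 503 normalized counts in the Vector libraries and 823, 647 and 661 in the shEZH2 libraries. The lowest shEZH2 library was above the highest Vector library. It gave a log2 fold change of 1.19 ± 0.58 (SE, limma adjusted p = 0.266) with all 6 libraries and 0.42 ± 0.13 without Vector replicate 2 (adjusted p = 0.0413). The lowest of the 10 was UQCRC1, a large core subunit on the matrix side, which had 5030, 4563 and 4827 against 5584, 4402 and 4968 normalized counts. The groups overlapped fully, and its log2 fold change of 0.05 ± 0.14 (SE, limma adjusted p = 0.860) was 0.01 ± 0.11 without Vector replicate 2. UQCRHL is a near-identical copy of UQCRH, so the split of reads between the pair is uncertain.

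Complex IV had the highest median with all 6 libraries, 1.03 over 13 tested nuclear genes, and 0.16 without Vector replicate 2. None of its genes passed the rule of the study or an adjusted p of 0.05 in either fit, and at an unadjusted p under 0.05 there were 0 in limma as well. DESeq2 called 0 by adjusted p in both fits. COX7C, a small subunit without a catalytic role, had the highest log2 fold change, 1.32 ± 0.79 (SE, limma adjusted p = 0.348), and 0.27 ± 0.15 without Vector replicate 2 (adjusted p = 0.239). It had 2727, 304 and 2676 normalized counts in the Vector libraries and 3995, 2550 and 3365 in the shEZH2 libraries. Vector replicate 2 lay far below the rest, and shEZH2 replicate 2 lay below Vector replicates 1 and 3. NDUFA4L2, a paralog of NDUFA4 known as a hypoxia-induced gene, was the lowest with all 6 libraries, with 35.6, 66.4 and 58.0 against 50.5, 44.7 and 30.6 normalized counts and a log2 fold change of -0.32 ± 0.31 (SE, limma adjusted p = 0.548). Without Vector replicate 2 it was -0.14 ± 0.29 (limma adjusted p = 0.780), and COX7A2L, at -0.21 ± 0.10 (adjusted p = 0.167), was then lower. With NDUFA4 and NDUFA4L2 counted in complex I, the medians with all 6 libraries were again 0.50 for complex I and 1.03 for complex IV. COX6B2, COX7A1 and COX8C, isoforms known from testis or muscle, were under the filter, with 0 to 11.2 normalized counts in every library.

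Complex V had medians of 0.74 with all 6 libraries and 0.07 without Vector replicate 2 over 19 tested nuclear genes. Those of the 5 subunits of the F1 head, which makes ATP, were 0.56 and 0.05, and those of the 12 tested subunits of the membrane part and stalks 0.95 and 0.18. In 7 of the 19 all shEZH2 libraries lay above all Vector libraries, against the same 18.4% of all genes. The same 7 lay above Vector replicates 1 and 3, against 25.1% of all genes. ATP5MC1, which encodes the rotating c subunit, had 794, 123 and 872 normalized counts in the Vector libraries and 1217, 951 and 942 in the shEZH2 libraries. It had the highest log2 fold change of the complex, 1.22 ± 0.68 (SE, limma adjusted p = 0.320), which was 0.31 ± 0.13 without Vector replicate 2 (adjusted p = 0.116).

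ATP5MC3 encodes the same c subunit, and it had 1595, 339 and 1489 against 2341, 1773 and 1952 normalized counts. With all 6 libraries it gave a log2 fold change of 1.11 ± 0.55 (SE, limma adjusted p = 0.271) and 0.38 ± 0.12 without Vector replicate 2 (adjusted p = 0.0421). ATP5PB, the b subunit of the peripheral stalk on chromosome 1 (111448864 to 111462773, plus strand), had 2949, 1479 and 2859 against 3485, 3652 and 3499. The log2 fold change was 0.61 ± 0.26 (SE, limma adjusted p = 0.217) and 0.29 ± 0.09 without Vector replicate 2 (adjusted p = 0.0428). In all 3 of these genes every shEZH2 library was above every Vector library. ATP5MC1 overlaps the pseudogene SUMO2P17 and ATP5PB overlaps WDR77, and their reads may be mixed with those of these genes. The lowest of the nuclear genes of complex V with all 6 libraries was ATP5S, named for ATP synthase and grouped here with its associated genes. It had 325, 283 and 333 against 257, 275 and 314 normalized counts. Its log2 fold change was -0.15 ± 0.15 (SE, limma adjusted p = 0.546), or -0.23 ± 0.13 without Vector replicate 2 (adjusted p = 0.269). ATP5MF-PTCD1, a readthrough transcript, and ATP5MGL were under the filter, with 0 to 3.82 normalized counts.

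**Figure D4:**
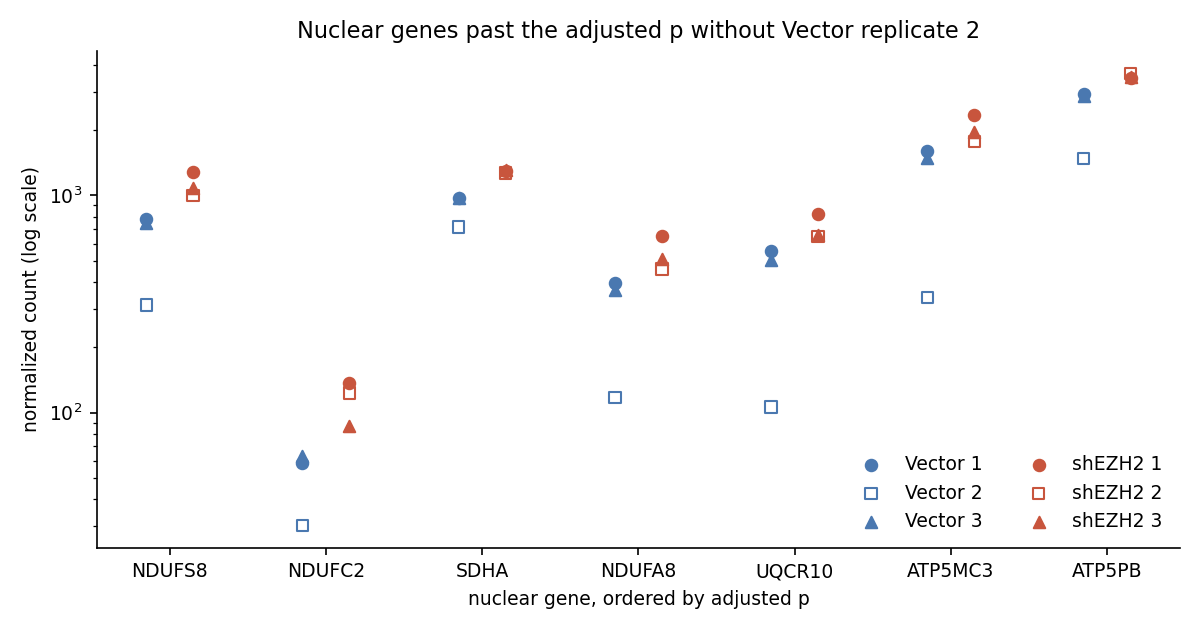
Normalized counts on a log scale of the 7 nuclear genes with an adjusted p under 0.05 without Vector replicate 2, in the order of that p. Blue symbols are the Vector and red symbols the shEZH2 libraries, with circles, open squares and triangles for replicates 1, 2 and 3. In every gene the red symbols lie above the blue ones, and the open blue square (Vector replicate 2) lies below the other Vector libraries.

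The promoters of these 7 genes were looked up in RefSeq (GRCh38.p14), from 250 bases before to 50 bases after the start, and 5 of the 7 were found. They are shown because these genes passed the same threshold in the same fit, which does not make them a set under shared control. Capitals mark matches on either strand to the core of NRF1 (CGCATGCG), of ETS factors such as GABPA (CCGGAAG) or of YY1 (AAGATGGC), factors known to act on genes of mitochondrial proteins. The windows are chr11:68030431-68030730 on the plus strand for NDUFS8, chr9:122159730-122160029 on the minus strand for NDUFA8, chr5:218070-218369 on the plus strand for SDHA, chr22:29767119-29767418 on the plus strand for UQCR10 and chr1:111449214-111449513 on the plus strand for ATP5PB.
NDUFS8: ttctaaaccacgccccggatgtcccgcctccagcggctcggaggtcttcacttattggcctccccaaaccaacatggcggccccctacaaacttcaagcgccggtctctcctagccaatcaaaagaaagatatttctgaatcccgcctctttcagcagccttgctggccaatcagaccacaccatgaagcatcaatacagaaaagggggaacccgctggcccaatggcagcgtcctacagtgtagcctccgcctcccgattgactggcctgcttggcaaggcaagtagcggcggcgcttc
NDUFA8: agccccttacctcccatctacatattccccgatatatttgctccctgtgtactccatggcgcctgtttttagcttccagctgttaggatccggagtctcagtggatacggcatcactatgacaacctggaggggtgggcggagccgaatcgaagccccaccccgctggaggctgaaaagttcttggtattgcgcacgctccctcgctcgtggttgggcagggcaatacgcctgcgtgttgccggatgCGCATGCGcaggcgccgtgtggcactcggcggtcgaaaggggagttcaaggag
SDHA: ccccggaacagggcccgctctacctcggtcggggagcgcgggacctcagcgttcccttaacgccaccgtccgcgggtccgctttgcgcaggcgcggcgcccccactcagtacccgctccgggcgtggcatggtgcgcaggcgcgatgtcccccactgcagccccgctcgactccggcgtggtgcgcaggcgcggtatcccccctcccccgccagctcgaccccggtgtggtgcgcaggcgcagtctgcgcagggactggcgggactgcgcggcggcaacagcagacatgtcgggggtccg
UQCR10: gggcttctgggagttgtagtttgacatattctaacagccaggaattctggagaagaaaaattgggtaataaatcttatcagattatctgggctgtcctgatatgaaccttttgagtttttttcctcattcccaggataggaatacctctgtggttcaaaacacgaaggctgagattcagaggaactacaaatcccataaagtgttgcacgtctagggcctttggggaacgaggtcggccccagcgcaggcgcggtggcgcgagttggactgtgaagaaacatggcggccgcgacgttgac
ATP5PB: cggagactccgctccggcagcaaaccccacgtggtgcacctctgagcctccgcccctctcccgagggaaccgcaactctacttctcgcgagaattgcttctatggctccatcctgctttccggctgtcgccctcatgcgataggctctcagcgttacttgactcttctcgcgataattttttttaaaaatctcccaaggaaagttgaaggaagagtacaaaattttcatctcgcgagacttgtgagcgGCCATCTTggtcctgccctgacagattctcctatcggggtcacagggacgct

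NDUFA8 held the NRF1 core from position -3 and ATP5PB the YY1 motif from position -2, counted from the start as 0, and the other 3 windows held none of these letters. Of the 87 nuclear genes, 56 had a promoter in the same table. The NRF1 core occurred in 14.3% of these 56 and in 3.62% of 8835 protein-coding promoters of the same length, the ETS core in 30.4% and 18.2%, and the YY1 motif in 17.9% and 5.16%. Any of the 3 occurred in 53.6% and 24.8%. A match to these letters is a description of the window, not a binding site.

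The mitochondrially encoded genes went the other way in size. With all 6 libraries, 10 of the 13 had a log2 fold change below 0 (8 with total-count scaling and 9 with TMM factors), with a median of -0.10. Without Vector replicate 2 all 13 were below 0 in limma and DESeq2 and 12 in edgeR with TMM factors, with a median of -0.25 in limma. By the rule of the study, MT-ND4L fell in both fits, which is 7.7% of the 13, where 7.07% of all genes fell with all 6 libraries and 5.64% without Vector replicate 2. By adjusted p in limma, 0 of the 13 changed with all 6 libraries, where 1 had an unadjusted p under 0.05 and where DESeq2 called 1 and edgeR 0, and MT-ND4L and MT-ND4 fell without Vector replicate 2. Those 2 are 15.4% of the 13, where 9.07% of all genes fell. The shEZH2 libraries lay below all Vector libraries in 2 of the 13, MT-ND4L and MT-ND6, against 16.5% of all genes tested, and below Vector replicates 1 and 3 in 9 of the 13, against 24.9%. The 13 genes come from shared precursor transcripts and are not independent of one another.

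MT-ND4L and MT-ND4 encode proton-pumping subunits of complex I from one mRNA, at positions 10470 to 10766 and 10760 to 12137 of the mitochondrial chromosome, and share 7 bases. MT-ND4L had 7057, 8950 and 7028 normalized counts in the Vector libraries and 3916, 4008 and 6147 in the shEZH2 libraries. All shEZH2 libraries were lower, and shEZH2 replicate 3 was nearest to the Vector level. The log2 fold change was -0.73 ± 0.21 (SE, limma adjusted p = 0.102) and -0.62 ± 0.16 without Vector replicate 2 (adjusted p = 0.0159).

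MT-ND4 had 49703, 34167 and 47975 normalized counts in the Vector libraries and 29925, 34625 and 37604 in the shEZH2 libraries. Vector replicate 2 lay among the shEZH2 libraries, and the other 2 Vector libraries lay above all of them. Its log2 fold change was -0.35 ± 0.21 (SE, limma adjusted p = 0.352) and -0.53 ± 0.11 without Vector replicate 2 (adjusted p = 0.00416). Although both genes lie on one mRNA, MT-ND4L had 65.9%, 122% and 68.0% of the MT-ND4 level per base in the Vector libraries and 60.7%, 53.7% and 75.8% in the shEZH2 libraries, so the ratio varied within the groups.

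The other subunits of complex I did not pass an adjusted p of 0.05 in limma in either fit. MT-ND6, the only one of the 13 on the minus strand, had 7058, 8167 and 7148 normalized counts in the Vector libraries and 5934, 6081 and 6601 in the shEZH2 libraries. The groups did not overlap, and the log2 fold change was -0.26 ± 0.14 (SE, limma adjusted p = 0.297) and -0.20 ± 0.09 without Vector replicate 2 (adjusted p = 0.159). As it is not given whether counting used strand, reads of transcripts from the opposite strand may be included in MT-ND6. MT-ND5 had 26634, 46145 and 26956 against 21189, 24554 and 29396, with Vector replicate 2 the highest, and log2 fold changes of -0.37 and -0.11 in the 2 fits. MT-ND1 had 15659, 9384 and 14719 against 11347, 12322 and 13883, with Vector replicate 2 the lowest, and log2 fold changes of -0.05 and -0.28. MT-ND2 had 20593, 11801 and 19783 against 16373, 20060 and 20671 (0.17 and -0.09). MT-ND3 had 3825, 1531 and 3389 against 3152, 2077 and 3112 (0.01 and -0.40). In these 3 genes the sign or size turned on Vector replicate 2.

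The 3 mitochondrially encoded core subunits of complex IV gave log2 fold changes of -0.01 ± 0.30, 0.27 ± 0.42 and -0.07 ± 0.19 (SE) for MT-CO1, MT-CO2 and MT-CO3 with all 6 libraries. Without Vector replicate 2 they were -0.28 ± 0.11, -0.25 ± 0.10 and -0.21 ± 0.11 (limma adjusted p = 0.0993 for MT-CO1 and 0.0856 for MT-CO2). MT-CO1 had 280287, 159895 and 272675 normalized counts in the Vector libraries and 201285, 236762 and 249301 in the shEZH2 libraries. MT-CO2 had 89108, 28621 and 81886 against 68590, 69974 and 76659. In both, the shEZH2 libraries lay between Vector replicate 2 and the other Vector libraries. MT-CO3 had 23261, 17200 and 22881 against 18513, 18775 and 22956, and shEZH2 replicate 3 reached the level of Vector replicates 1 and 3.

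MT-CYB, the cytochrome b of complex III, had 12671, 10714 and 12261 normalized counts in the Vector libraries and 9775, 11233 and 12239 in the shEZH2 libraries, with log2 fold changes of -0.10 ± 0.16 and, without Vector replicate 2, -0.18 ± 0.10 (SE, limma adjusted p = 0.711 and 0.270). MT-ATP6, the channel subunit of complex V, had 15800, 12332 and 16017 against 11957, 14053 and 13962 and log2 fold changes of -0.14 and -0.26 ± 0.10 (adjusted p = 0.0834 without Vector replicate 2). MT-ATP8 was the least abundant of the 13, with 168, 246 and 185 against 284, 99.8 and 148. In MT-CYB and MT-ATP6 the shEZH2 libraries lay below Vector replicates 1 and 3, while in MT-ATP8 the shEZH2 libraries spread across the whole range. The log2 fold change of MT-ATP8 was -0.29 ± 0.37 and, without Vector replicate 2, -0.13 ± 0.31 (SE, limma adjusted p = 0.648 and 0.816). With other libraries left out it ran from -0.69 without shEZH2 replicate 1, where it passed the rule of the study, to 0.06 without shEZH2 replicate 2. MT-ATP8 shares 46 of its bases with MT-ATP6, and how reads over shared bases were assigned is not given in the sources used here.

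**Figure D5:**
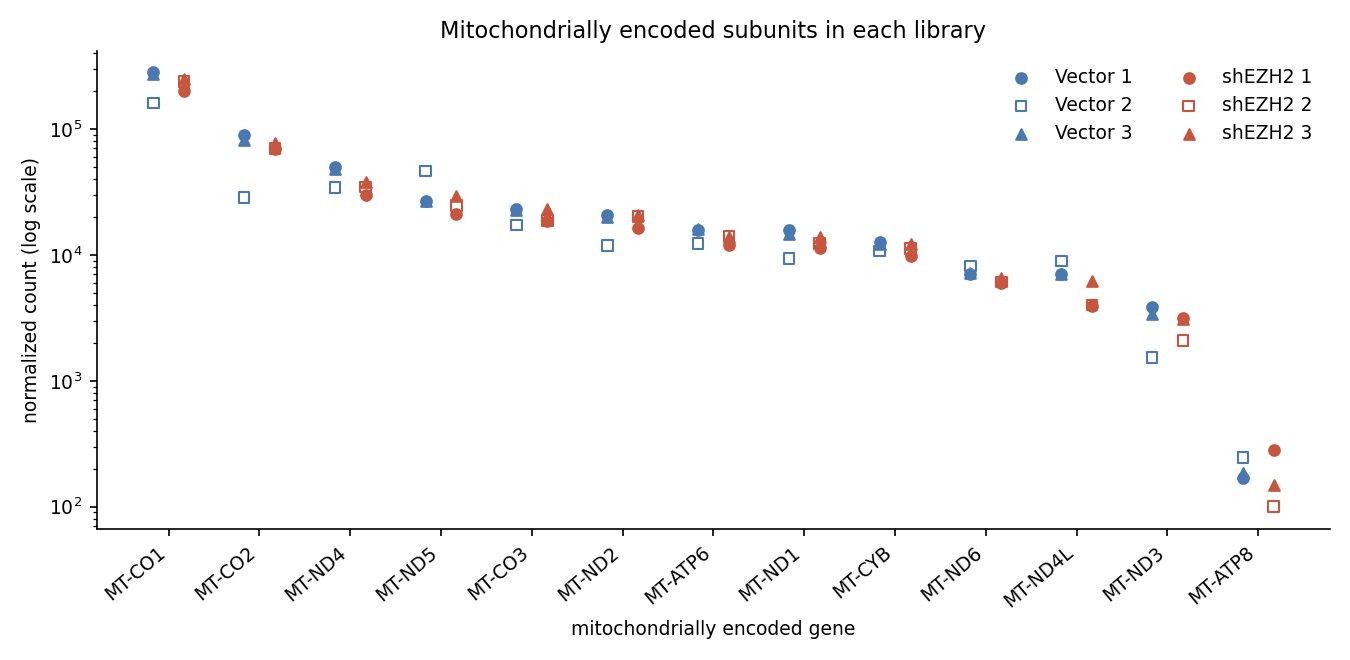
Normalized counts on a log scale of the 13 mitochondrially encoded genes in each library, in the order of their mean in Vector replicates 1 and 3. Blue symbols are the Vector and red symbols the shEZH2 libraries, with circles, open squares and triangles for replicates 1, 2 and 3. The red symbols of MT-ND4L and MT-ND6 lie below all blue ones. Vector replicate 2 lies below the rest in MT-CO1, MT-CO2, MT-CO3, MT-ND1, MT-ND2 and MT-ND3. It lies above the rest in MT-ND4L, MT-ND5 and MT-ND6.

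Summed over genes, the balance of the genomes differed between the groups. The 13 mitochondrial genes took 3.37%, 2.24% and 3.29% of all reads in the Vector libraries and 2.62%, 2.98% and 3.13% in the shEZH2 libraries. The 87 nuclear genes took 0.839%, 0.406% and 0.824% and then 1.04%, 0.864% and 0.905%. The 95% Wilson intervals of these shares reach at most 0.00893 percentage points to either side and cover counting error only. The ratio of mitochondrial to nuclear normalized counts was 4.01, 5.51 and 3.99 in the Vector libraries and 2.52, 3.45 and 3.46 in the shEZH2 libraries. The ratio was lower in all 3 shEZH2 libraries than in any Vector library, with or without Vector replicate 2. The nuclear share was higher in all 3 shEZH2 libraries, and the mitochondrial share was lower only against Vector replicates 1 and 3. MT-CO1 and MT-CO2 make up most of the mitochondrial sum. In Vector replicate 1 they had 280287 and 89108 of 551825 normalized counts, and in shEZH2 replicate 1 201285 and 68590 of 402239. The lowest ratio, 2.52, was that of shEZH2 replicate 1, the library that departed along length. No test was made on these sums.

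By complex, the nuclear share in Vector replicates 1 and 3 and in the 3 shEZH2 libraries was 0.197% and 0.192% against 0.248%, 0.198% and 0.207% in complex I, and 0.0379% and 0.0390% against 0.0458%, 0.0447% and 0.0454% in complex II. It was 0.129% and 0.126% against 0.163%, 0.133% and 0.142% in complex III, and 0.331% and 0.329% against 0.387%, 0.345% and 0.356% in complex V. In complex IV it was 0.144% and 0.139% against 0.195%, 0.143% and 0.154%, and there shEZH2 replicate 2 lay between the Vector libraries. Vector replicate 2 was at 0.0941%, 0.0239%, 0.0699%, 0.0330% and 0.185% in complexes I to V, below every other library.

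Levels per kilobase of gene length, on the normalized count scale, spanned the 2 genomes unevenly. In Vector replicates 1 and 3, MT-CO1 had a mean of 179300 and MT-CO2 of 124996 normalized counts per kilobase, and in shEZH2 148584 ± 16151 and 104885 ± 6309 (SD, n = 3). MT-ND4 followed at 35442 and 24711 ± 2809. ATP5F1B, the catalytic beta subunit of complex V, was the most abundant nuclear gene, at 11281 and 11459 ± 275 normalized counts per kilobase, above MT-CYB (10925 and 9713) and MT-ND3 (10426 and 8036). By this measure COX8A came next among the nuclear genes, at 3620 and 4400 ± 1389. The gene length used was 507 bases for COX8A and 4792 for COX4I1, whose canonical transcripts have 494 and 763 bases. The order of the nuclear genes, and their place against the mitochondrial genes, therefore depends on the length used. Against Vector replicates 1 and 3, MT-CO1 and MT-CO2 were lower in shEZH2 and ATP5F1B differed by less than its SD in shEZH2. With Vector replicate 2 included, the Vector means were 154098 for MT-CO1, which is above shEZH2, 97279 for MT-CO2, which is below shEZH2, and 10142 for ATP5F1B, which is below shEZH2 by more than that SD. ATP5F1B and COX8A were named after their values were seen.

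Genes around the system were taken from 7 lists. The assembly factors (46 tested) had medians of 0.30 with all 6 libraries and -0.03 without Vector replicate 2. By the rule of the study none rose and TTC19, a complex III assembly factor, fell (log2 fold change -0.59, limma adjusted p = 0.0380, and -0.58 without Vector replicate 2, under the fold of the study). Its adjusted p was between 0.121 and 0.219 with 1 of the other 5 libraries left out. The 78 mitochondrial ribosomal proteins had medians of 0.36 and 0.00. By that rule MRPL33 (1.25), MRPS6 (0.73), MRPL15 (0.67) and MRPL23 rose and 0 fell, which is 4 of 78 where 7.55% of all genes rose, while without Vector replicate 2 MRPL23 alone rose (0.71, limma adjusted p = 0.00120). MRPL33, MRPL15 and MRPS6 also missed the rule with any 1 of the shEZH2 libraries left out.

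The 31 genes of mitochondrial DNA replication, transcription and RNA handling had medians of 0.00 and -0.14. Of these TFB1M, a methyltransferase of the mitochondrial ribosomal RNA, rose (0.61, limma adjusted p = 0.112), and it passed an adjusted p of 0.05 but not the fold of the study without Vector replicate 2 (0.55, adjusted p = 0.0411). POLRMT, the mitochondrial RNA polymerase, had log2 fold changes of -0.15 and -0.09. LRPPRC, which stabilises mitochondrial mRNAs, had -0.37 and -0.21, and TFAM, which packages and helps transcribe the mitochondrial genome, -0.08 and -0.13. None of these 3 passed either rule. The call of TFB1M was lost without Vector replicate 2, Vector replicate 3 or shEZH2 replicate 1.

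The 12 tested transcriptional regulators of oxidative phosphorylation genes had medians of -0.22 and -0.15, and 0 passed the rule of the study in either direction. PPARGC1A had log2 fold changes of 0.05 and 0.14. In the tricarboxylic acid cycle (17 tested, medians of 0.29 and 0.14) IDH2, which makes NADPH in mitochondria, rose (0.64, limma adjusted p = 0.0359, and 0.61 without Vector replicate 2, adjusted p = 0.00137), and PDHB, a pyruvate dehydrogenase subunit, rose by the rule of the study with all 6 libraries (0.66, adjusted p = 0.180). The adjusted p of IDH2 was between 0.114 and 0.212 with 1 of the other 5 libraries left out. Among 14 genes of the outer membrane and import (medians of 0.27 and 0.11), VDAC3, an outer membrane channel, rose (0.92, limma adjusted p = 0.0758, and 0.65 without Vector replicate 2, adjusted p = 0.00265), as did TIMM23, a pore subunit of the inner membrane translocase, with all 6 libraries (0.67, adjusted p = 0.152). By the rule of the study the calls of PDHB and TIMM23 were lost without Vector replicate 2 and without any 1 of the shEZH2 libraries. The 17 mobile electron carriers and other feeders (medians of 0.27 and 0.14) had 0 genes past the rule of the study in either direction.

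By adjusted p in limma without Vector replicate 2, where 9.78% of all genes rose and 9.07% fell, the lists held calls in both directions. Of the 78 mitochondrial ribosomal proteins 4 rose (MRPL15, MRPL23, MRPL33 and MRPS27) and 3 fell (MRPL18, MRPL19 and MRPL58). Of the 31 genes of mitochondrial DNA and RNA handling, TFB1M rose and 2 fell, FASTKD2, which acts on mitochondrial RNA (-0.46, limma adjusted p = 0.0226), and POLG2, the accessory subunit of the mitochondrial DNA polymerase (-0.38, adjusted p = 0.0269). In the tricarboxylic acid cycle IDH2, OGDH and PDHB rose and SUCLA2 fell. Of the outer membrane and import genes VDAC3 and TIMM23 rose and HSPA9 fell. Of the carriers and feeders COQ2 rose, of the assembly factors TTC19 fell, and 0 of the 12 regulators passed, with 0 by DESeq2 as well. At an unadjusted p under 0.05 in the same limma fit there were 3 of the 12 regulators, where 4906 of the 15251 genes tested passed. The genes named here and not before were named after their values were seen.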

How the data were processed

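RNA from HMV-II cells was sequenced in 6 libraries, 3 per group. Reads were assigned to genes by the authors with featureCounts v1.5.0-p3, per the labels. The submitters' processing notes name DESeq2 1.20.0 and hg19. The deposited table holds signal values, which are read counts that the authors divided by a size factor per library, called normalized counts here. The gene coordinates in it are GRCh38. It also holds the authors' group means, fold changes and p-values, which were not used. The table has 6 columns of single libraries, and 0 of them stayed unused. Multiplied by a library's size factor, 100% of the values came within 0.1 of a whole read.

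The test was limma 3.58.1, with lmFit and a trended eBayes, on log2(normalized count + 1). It was run over the 15251 genes whose mean was 10 normalized counts or more, with Benjamini-Hochberg adjustment over all of them. Fold changes are on that scale, which understates the change of low genes. A gene was called by the rule of the study, an unadjusted p under 0.05 and a fold change over 1.5 (0.585 on the log2 scale), or by an adjusted p under 0.05. Exact permutation of 3 against 3 libraries has 20 arrangements, cannot go below p = 0.1 and was not used for calls.

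The members and the 7 gene lists were chosen with earlier results of these data known. The genes named are all mitochondrial and all SDH genes, the highest and the lowest log2 fold change of complexes I, III, IV and V, genes past the rule of the study, and PPARGC1A, TFAM, POLRMT and LRPPRC. Others are marked as named after their values were seen. Alternatives were DESeq2 1.42.0 and edgeR 4.0.16 (TMM) on the recovered reads, TMM factors, total-count scaling, removal of a loess trend on gene length, a replicate block, other pseudocounts (0.1 and 5), other filters (none, or a minimum mean of 50), NDUFA4 and NDUFA4L2 in complex I, and each library left out in turn. DESeq2 and edgeR without Vector replicate 2 were added after seeing the data. The fits were tested on simulated data. Canonical transcript lengths came from GENCODE lifted to GRCh37, with no coordinates taken from it. R 4.3.3, Python 3.11.15, pandas 2.3.3 and matplotlib 3.10.9 were used.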

Additional observations from a re-analysis of the deposited data

How the results depend on the processing

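Depth limits most the genes with few counts, such as NDUFV2 and NDUFC2. The count of nuclear genes that rose by the rule of the study, 3 with all 6 libraries, was 7 with the gene length trend removed, 7 with total-count scaling, 8 with no minimum mean and 1 with DESeq2 or edgeR without Vector replicate 2, and it ran from 1 to 26 with each library left out. By adjusted p, from 0 it became 2 with DESeq2, 1 with the length trend removed and 7 with DESeq2 or edgeR without Vector replicate 2, and ran from 0 to 7 with each library left out. The count of mitochondrial genes that fell, 1 by the rule of the study, was 0 with edgeR without Vector replicate 2 and ran from 1 to 2. By adjusted p, from 0 it was 1 with DESeq2 and 2 with either tool without Vector replicate 2, and ran from 0 to 2. For most of these settings the counts over all genes are not given here. The counts are therefore not read as a trait of these genes. The causes were not tested.

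With each library left out, the median log2 fold change ran from 0.11 to 0.98 over nuclear genes and from -0.25 to -0.04 over mitochondrial genes. By complex it ran from 0.07 to 0.81 in I, 0.17 to 0.68 in II, 0.16 to 0.96 in III, 0.16 to 1.51 in IV and 0.07 to 1.14 in V, the low end always without Vector replicate 2. For complex II it was also 0.17 with DESeq2 and 0.18 with edgeR without that library. No result changed its direction past a threshold. With the replicate block the nuclear genes called by the rule of the study were 21 in place of 3, and by adjusted p 0. The count over all genes in that fit is not given here. Whether the replicate numbers pair the libraries is not known. The correlation of same-numbered deviations was 0.28, 0.22 and -0.11, and that of differently numbered ones ran from -0.31 to 0.25. The deviations are taken from the mean of each group of 3 and are tied to one another, so they cannot decide this.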

Other observations

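Both mitochondrial ribosomal RNAs, which are no subunit genes and were looked at after their values were seen, were lower in every shEZH2 library than in every Vector library. MT-RNR2 had 426383, 401043 and 409994 normalized counts in the Vector libraries and 199160, 226673 and 245833 in the shEZH2 libraries, in the order of their numbers. Its log2 fold change was -0.89 ± 0.24 (SE, limma adjusted p = 0.0846) and -0.91 ± 0.11 without Vector replicate 2 (adjusted p = 1.28e-04). Vector replicate 2 did not stand apart in MT-RNR2. MT-RNR1 had 46931, 73551 and 41755 against 32680, 30166 and 34918, a log2 fold change of -0.69 ± 0.25 (SE, limma adjusted p = 0.157) and -0.44 ± 0.10 without Vector replicate 2 (adjusted p = 0.00786). By DESeq2 with all 6 libraries the adjusted p was 4.27e-07 for MT-RNR2 and 0.0405 for MT-RNR1. Together they took 2.89%, 3.04% and 2.79% of reads in the Vector libraries and 1.51%, 1.68% and 1.78% in the shEZH2 libraries. The RNA was poly(A)-selected, so these shares count ribosomal RNA that passed the selection and are not the ribosomal RNA content of the cells.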
